A study of Mus musculus with 12 samples.

Results

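The Rab family of small GTPases was examined in mouse embryonic forelimbs and in bone marrow cultures grown towards osteoclasts, with or without deletion of Impdh2. Members were the protein-coding genes whose symbol is Rab, a number and at most a paralog letter and digit. The rule found 59 genes, all present both among the 51826 gene identifiers of the forelimb data and among the 55401 of the culture data. All 59 passed the filter on low counts in the forelimb, where 19987 genes were tested. In the cultures 49 passed among 14030 genes tested. The 10 members left untested there were Rab3c, Rab9b, Rab17, Rab25, Rab26, Rab33a, Rab36, Rab37, Rab39b and Rab40b, none above 12 counts in any culture library.

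The 12 libraries formed 6 groups of 2. Forelimbs came from E12.5 embryos, either wild type (WT) or Impdh2 Prx-cKO, a conditional knockout whose name refers to the Prx (Prrx1) driver, active in limb mesenchyme and not in ectoderm, muscle precursors or blood. Cultures came from bone marrow of WT or Impdh2 LysM-cKO mice, whose name refers to the myeloid LysM (Lyz2) driver, in the conditions titled R40D3 and R0D3. Marrow cells first spent 3 days in L929 supernatant, a source of M-CSF used at the equivalent of 20 ng/ml, and the protocol then names 40 ng/ml of RANKL, the cytokine that induces osteoclasts. R40 and R0 are not spelled out, and the treatment label is the same for all 8 samples, so both serve only as names here. Whether WT animals carried floxed alleles, and whether replicates came from separate animals, pools or cultures, is not given in the labels. The p-values therefore measure only the spread between these samples, which may be technical.

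Rab proteins are switches of membrane traffic. Bound to GTP they sit on a vesicle or organelle and recruit effectors, and after GTP hydrolysis they are taken off the membrane. Exchange factors (GEFs) load GTP and GTPase-activating proteins (GAPs) speed its hydrolysis. Impdh2 encodes the enzyme that commits purine synthesis to guanine nucleotides, the ligands of every Rab. An osteoclast resorbs bone by fusing lysosome-like vesicles with the membrane facing the bone, so the Rabs of late endosomes, lysosomes and secretory vesicles are those most often discussed in this cell.

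Like other small GTPases, Rab proteins hold the phosphates of GTP or GDP in a conserved loop. Codons of its conserved residues were found in the annotated coding sequence of 57 of the 59 members. The loop is shown for Rab38 and Rab8b, on which the culture results turn, each with its closest paralog here. Capitals mark the codons of the conserved residues, and the sequences, read from GENCODE M21 transcripts on GRCm38, run 5′ to 3′ on the coding strand. They lie at chr7:88430447-88430470 (plus strand), chr10:10557978-10558001 (minus), chr9:66919568-66919591 (minus) and chr8:72161401-72161424 (plus), in the order printed, each within a coding exon.
Rab38: GGCgacctgggtgtgGGCAAGACC
Rab32: GGCgagctcggcgtgGGTAAGACG
Rab8b: GGCgactccggcgttGGCAAGACC
Rab8a: GGGgactcgggggtaGGGAAGACC

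Reads within a stretch shared by paralogs could count for either gene, and the read length is not given in the sources used here. Over their aligned coding bases Rab38 and Rab32 were 73.4% identical and shared no run longer than 14 bases. Rab8a and Rab8b were 79.3% identical with a longest shared run of 17 bases, and Rab7 and Rab7b were 64.5% identical with a longest run of 18. The run was 23 bases between Rab4a and Rab4b, 29 between Rab3a and Rab3d and 38 between Rab1a and Rab1b. Untranslated bases were not compared.

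Forelimb libraries held 28892215 to 69466572 counts each, and culture libraries 16009146 to 19221865. Levels are in CPM, read counts divided by TMM-scaled library size. The targeted gene, Impdh2, read 260 and 272 CPM in the WT forelimbs against 170 and 199 CPM in Prx-cKO (log2 fold change −0.53, SE 0.16, edgeR adjusted p 0.443), which did not pass. In R40D3 cultures it read 25.7 and 27.7 CPM in WT against 7.72 and 8.38 CPM in LysM-cKO. The log2 fold change was −1.73 (SE 0.15, edgeR adjusted p 0.0386, up to 0.661 over the alternatives tried). The adjusted p was 0.00282 in edgeR with the replicate number as a block and 9.91e-11 in DESeq2. In R0D3 cultures Impdh2 read 22.3 and 28.2 CPM in WT against 7.36 and 7.03 CPM in LysM-cKO. The log2 fold change was −1.81 (SE 0.16, edgeR adjusted p 0.0323, up to 0.546 over the alternatives). The adjusted p was 0.00239 in edgeR with the block and 9.08e-12 in DESeq2. The summed level of 11 osteoclast markers was 325 to 471 CPM in the 4 R0D3 libraries, with Calcr at 0 in all 4, and 13272 to 38999 CPM in the 4 R40D3 libraries. Macrophage markers (10 genes) summed to 11485 to 12510 CPM in the R0D3 and to 9651 to 12053 CPM in the R40D3 libraries. Between R40D3 and R0D3, 3 of these 10 were called lower in WT (6 with the replicate number as a block, median log2 fold change −0.40) and 2 in LysM-cKO (3 with the block, median −0.23). The part of these markers in the Rab falls of the same comparison was not tested. The 8 proliferation markers were all on the lower side at R40D3 in WT (median −0.65) and in LysM-cKO (median −0.81), with none called without the block and 1 and 3 called with it. The 8 stromal fibroblast markers summed to 458 and 531 CPM in the LysM-cKO replicate 2 libraries and to 1257 to 1695 CPM in the other 6, so these libraries hold stromal transcripts in unequal amounts.

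Per exon length, the leading Rab gene differed between forelimb and cultures. Levels per length are CPM per kb of exon, the only scale on which genes are compared here, and forelimb and cultures were scaled separately. The 59 members summed to 1506 to 1632 CPM per kb in the culture libraries and to 737 to 781 in the forelimb libraries. In each of the 8 culture libraries the first gene was Rab7, the Rab of late endosomes and lysosomes, with 16.1% to 21.2% of the family sum. Rab5c, an early endosome Rab, came second there. In all 4 forelimb libraries the first was Rab1b, which works between endoplasmic reticulum (ER) and Golgi, with 11.4% to 15.2%, followed by Rab2a of the same route and Rab5c. In the forelimb 50 to 52 members reached 1 CPM in a library and in the cultures 42 to 46.

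Several members lay far apart between the sources. Rab7b, which moves cargo from late endosomes to the Golgi, was at 69.7 and 58.7 CPM per kb in WT R0D3 cultures and at 0.107 and 0.0814 in WT forelimbs. Rab20, a Rab of maturing phagosomes, was at 16.4 and 15.5 CPM per kb in WT R0D3 cultures and at 0.645 and 0.400 in WT forelimbs. Rab25, an epithelial recycling Rab, went the other way, with at most 1 count in any culture library and 4.35 to 6.97 CPM in the forelimb libraries. These members were picked after their values were seen, and no test was made across the 2 sources. In bulk RNA, more cells of a type and more RNA per cell cannot be told apart, here or below.

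**Figure D1:**
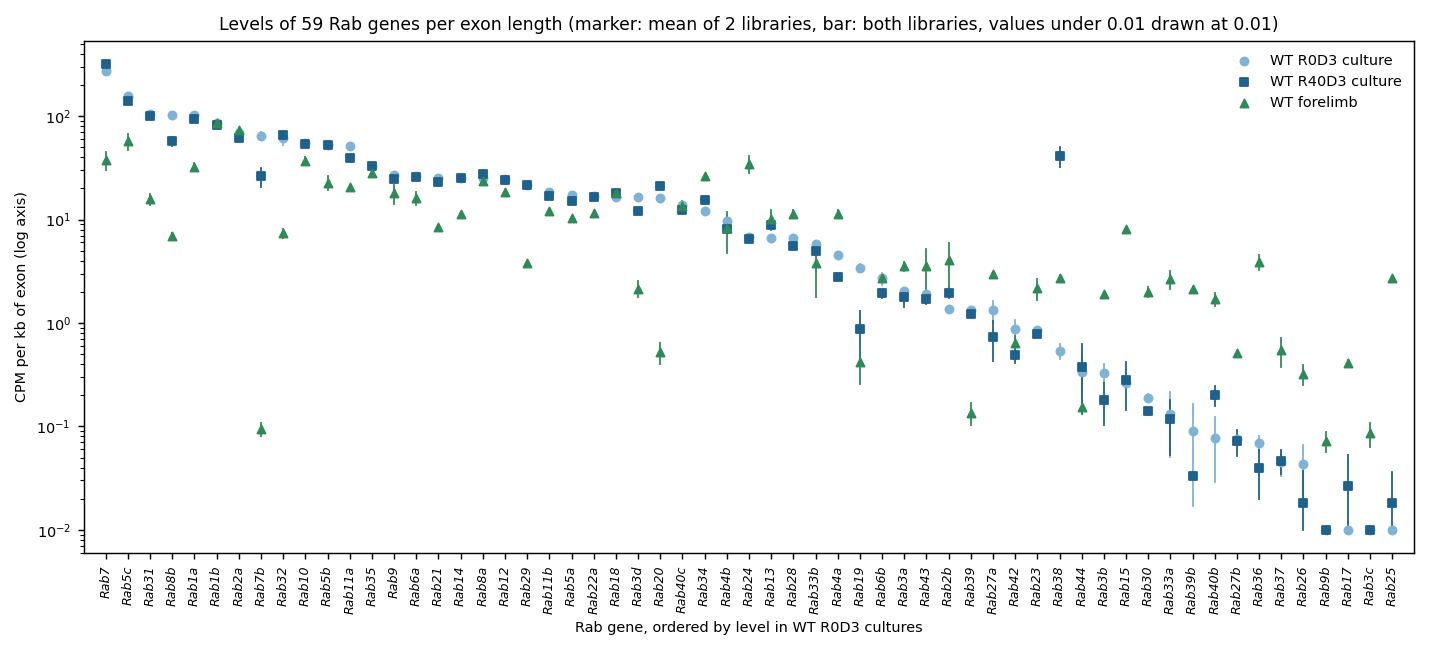
Level of each of the 59 Rab genes in CPM per kb of exon (log axis) in WT R0D3 cultures, WT R40D3 cultures and WT forelimbs, as the mean of 2 libraries with a bar joining both. Rab7 leads in the cultures, and Rab38 lies at rank 44 in WT R0D3 and at rank 11 in WT R40D3 cultures.

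The first comparison asked which Rab genes differ between R40D3 and R0D3 cultures of WT cells. Of 49 members tested, 8 were called, which is 16.3%, while 16.9% of all genes tested were called (edgeR quasi-likelihood test, adjusted p under 0.05). The total share of members called was thus close to that of all genes. The direction differed, with 2 members called higher and 6 lower against 1593 and 774 of all genes. Rab38 and Rab20 rose (11.4% of all genes were called higher) and Rab7b, Rab8b, Rab19, Rab4a, Rab3d and Rab11a fell (5.52% were called lower). The median log2 fold change was −0.12 over the members and 0.01 over all genes tested. In 25 of the 49 members both R40D3 libraries lay below both R0D3 libraries and in 8 above, against 29.2% and 32.9% of all genes. No test was made of these differences in direction.

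Rab38 was called whichever WT library was left out, and Rab3d, Rab11a, Rab20 and Rab4a only with all 4. Without WT R0D3 replicate 1 only Rab38 was called. Without WT R0D3 replicate 2 or WT R40D3 replicate 2 there were 3 calls, Rab38, Rab7b and Rab8b, and without WT R40D3 replicate 1 these and Rab19, 4 in all. A group of 1 library is assumed there to vary like the others. DESeq2 called 6 members, leaving out Rab20 and Rab4a, and 9.3% of the 24698 genes it tested.

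Rab38 had the widest difference of any member. Rab38 (ENSMUSG00000030559, chr7:88430273-88491572, plus strand) acts with Rab32 in building lysosome-related organelles such as melanosomes. It was at 0.699 and 0.995 CPM in WT R0D3 libraries (12 and 16 counts) and at 50.8 and 79.6 CPM in WT R40D3 libraries. Its log2 fold change was 6.26 (SE 0.57, 95% CI 4.94 to 7.58, edgeR adjusted p 0.000826), a 76.6-fold higher level. All R40D3 libraries of either genotype stood above all R0D3 libraries. Rab32, the paralog with which it shares its role, was present throughout, at 122 and 168 CPM in WT R0D3 and at 147 and 163 CPM in WT R40D3, and was not called. Per kb of exon Rab38 remained below Rab32 at R40D3, at 32.2 and 50.5 against 62.9 and 69.7.

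Rab38 and the osteoclast marker sum were both low in R0D3 and high in R40D3 libraries, as any gene high only at R40D3 would be. Per 1000 CPM of the 11 markers it stood at 1.92 and 2.04 CPM in WT R40D3 libraries and at 2.02 and 2.46 CPM in LysM-cKO R40D3 libraries. In R0D3 libraries, where both are low and Rab38 rests on 12 to 16 counts a library, the ratio was 1.48 to 2.83. The marker sum is given as a value beside Rab38, and its part in the difference was not tested.

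The other late endosomal and lysosomal Rabs changed less. Of 11 members of this group tested, 2 rose, 1 fell and 8 were not called in WT. That is 27.3% called, against 16.9% of all genes. No test was made of the shares of role groups, here or below. Rab7b (chr1:131688695-131715439, plus strand) fell from 322 and 272 CPM in R0D3 to 146 and 95.8 CPM in R40D3 libraries, with no overlap. The log2 fold change was −1.30 (SE 0.20, edgeR adjusted p 0.00595). Rab20 (chr8:11453518-11478710, minus strand) was at 22.9 and 21.6 CPM in R0D3 and at 30.0 and 28.5 CPM in R40D3 libraries (log2 fold change 0.39, SE 0.10, edgeR adjusted p 0.0371). An opposite-strand transcript covers 25.6% of its exonic bases, and the use of strand in counting is not given in the sources used here. Rab7, named here for its level, was at 732 and 705 CPM in R0D3 and at 831 and 826 CPM in R40D3, a log2 fold change of 0.21 that did not pass (edgeR adjusted p 0.168).

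**Figure D2:**
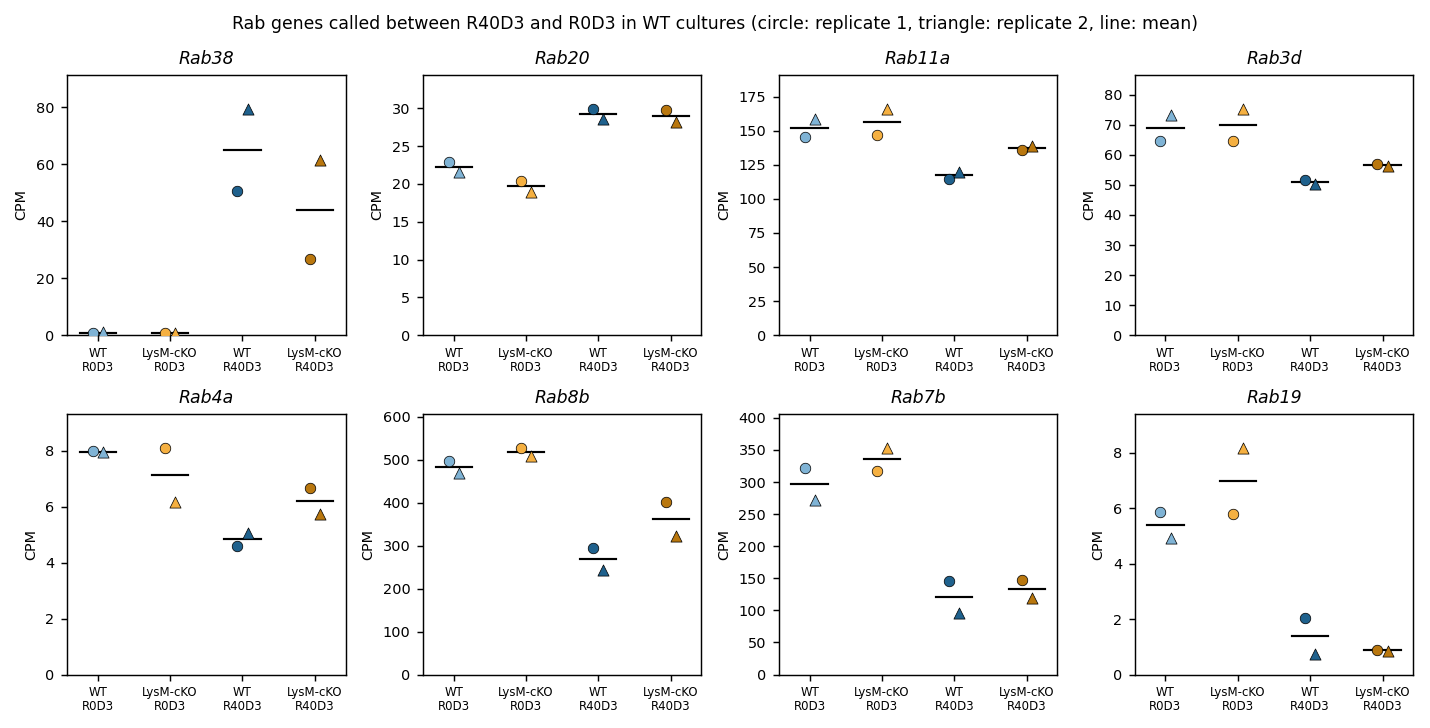
CPM of the 8 Rab genes called between R40D3 and R0D3 in WT, 1 panel a gene with its own linear axis from 0, for all 8 culture libraries. Rab38 is at or below 0.995 CPM in every R0D3 library and at 26.9 CPM or more in every R40D3 library, while the LysM-cKO R40D3 libraries of Rab8b lie above the WT R40D3 libraries.

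Among Rabs of polarised and regulated exocytosis, 2 of 10 tested (20%) fell in WT and none was called higher. Of all genes 5.52% were called lower and 11.4% higher. Rab8b (chr9:66843664-66919687, minus strand), which carries vesicles to the plasma membrane, was the fourth Rab by level per length in R0D3 cultures. It went from 498 and 470 CPM in R0D3 to 295 and 244 CPM in R40D3 libraries, with no overlap (log2 fold change −0.85, SE 0.14, edgeR adjusted p 0.00652). Its paralog Rab8a was at 115 and 120 CPM in R0D3 and at 126 and 130 CPM in R40D3 and was not called. Rab3d (chr9:21907491-21918192, minus strand), a secretory vesicle Rab, was at 64.7 and 73.1 CPM in R0D3 and at 51.5 and 50.2 CPM in R40D3 libraries. Its fall was small (log2 fold change −0.44, SE 0.11, edgeR adjusted p 0.0285). Rab27a, Rab27b, Rab3b and Rab15 were below 7 CPM in every culture library and were not called.

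Among early endosome and recycling Rabs, 2 of 12 tested (16.7%) fell in WT, against 5.52% of all genes called lower. Rab4a (chr8:123805985-123835287, plus strand), which returns receptors quickly from early endosomes, was at 7.98 and 7.96 CPM in R0D3 and at 4.60 and 5.07 CPM in R40D3 libraries (log2 fold change −0.72, SE 0.20, edgeR adjusted p 0.0456). Rab11a (chr9:64715299-64737758, minus strand), the Rab of the slower recycling endosome, was at 145 and 159 CPM in R0D3 and at 115 and 120 CPM in R40D3 libraries (−0.37, SE 0.09, edgeR adjusted p 0.0313). Neither overlapped between the conditions. Rab5a, Rab5b, Rab5c, Rab14, Rab21, Rab22a, Rab31, Rab35, Rab4b and Rab11b were not called.

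No member of the ER and Golgi group (10 tested) was called, nor was Rab23 or Rab28, the only members placed in the cilium-linked group here. Each member was placed in a single role group. Rab19 (chr6:39381175-39390380, plus strand), whose role is less settled, was called lower among 4 remaining Rabs tested (25%). Of all genes 16.9% were called, 5.52% on the lower side. Rab19 stood at 5.88 and 4.91 CPM in R0D3 and at 2.04 and 0.733 CPM in R40D3 libraries, the last resting on 12 counts. The log2 fold change was −1.92 (SE 0.40, edgeR adjusted p 0.0166).

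The same comparison in LysM-cKO cultures gave 4 calls of 49 members, 8.16% against 10.1% of all genes tested (edgeR), again near the background in total. Rab38 and Rab20 rose (6.99% of all genes were called higher), Rab7b and Rab19 fell (3.15% lower), and these 4 were also among the 8 called in WT. The member median was −0.08 against 0.01 over all genes. With the replicate number as a block the count was 8, with 21.3% of all genes called, and Rab8b, Rab33b, Rab3d and Rab5c joined as lower. In WT the block called the same 8 members as without it, with 28.3% of all genes called. DESeq2 called 5 members in LysM-cKO, the 4 and Rab8b, and 6.39% of its genes. Without LysM-cKO R0D3 replicate 2 there were 2 calls, Rab38 and Rab19.

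Rab38 in LysM-cKO was at 0.747 and 0.909 CPM in R0D3 and at 26.9 and 61.4 CPM in R40D3 libraries, a 2.28-fold spread between R40D3 replicates. Its log2 fold change was 5.72 (SE 0.57, edgeR adjusted p 0.00185). Rab7b went from 318 and 353 to 147 and 119 CPM (−1.33, SE 0.20, edgeR adjusted p 0.00893). Rab19 went from 5.81 and 8.19 to 0.899 and 0.862 CPM (−2.97, SE 0.42, edgeR adjusted p 0.00676). None of these 3 overlapped between the conditions. Rab20 went from 20.4 and 19.0 to 29.8 and 28.2 CPM (0.56, SE 0.10, edgeR adjusted p 0.0165). Rab8b went from 528 and 510 to 402 and 323 CPM without overlap, and its log2 fold change of −0.52 (SE 0.14) had an edgeR adjusted p of 0.0548. Its block value was −0.53 (edgeR adjusted p 0.00326, range over all alternatives 0.00326 to 0.196).

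**Figure D3:**
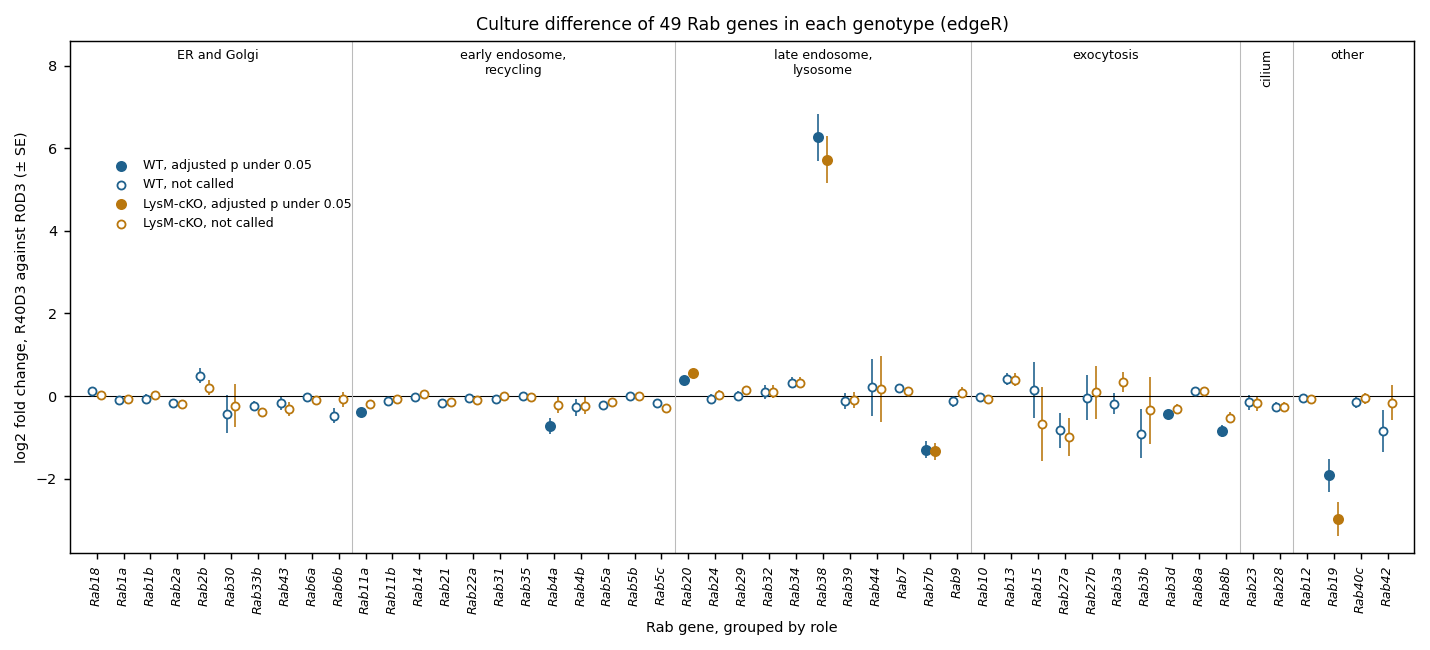
Log2 fold change of R40D3 against R0D3 (± SE) for the 49 tested Rab genes in WT and in LysM-cKO cultures, grouped by role, with called genes filled. Rab38 stands at 6.26 and 5.72, and 39 of the 49 genes lie within 0.5 of 0 in both genotypes.

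Whether the culture difference itself depended on genotype was tested with the interaction term. No member of 49 was called (0 of all genes, so 0% by edgeR), none had an unadjusted p under 0.05 (1.77% of all genes), and DESeq2 called 0. The smallest p belonged to Rab4a (0.52 on the log2 scale, SE 0.28, edgeR p 0.101, adjusted p 1.00), Rab8b (0.33, SE 0.19, p 0.131) and Rab19 (−1.06, SE 0.63, p 0.136). For 37 members the 95% interval of the interaction lay within 1 log2 unit of 0. The difference in the number of calls between WT and LysM-cKO is therefore not shown to be a difference in response.

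At R40D3, the comparison of LysM-cKO with WT called 0 of 49 members and 0.0143% of all genes (edgeR). DESeq2 also called 0 members (0.0648% of its genes), and 2 had an unadjusted edgeR p under 0.05, as did 7.47% of all genes. These were Rab8b, at 295 and 244 CPM in WT and 402 and 323 CPM in LysM-cKO (log2 fold change 0.43, SE 0.14, edgeR p 0.0153, adjusted p 0.648), and Rab11a, at 115 and 120 CPM in WT and 135 and 138 CPM in LysM-cKO (0.22, SE 0.09, p 0.044). Neither overlapped between genotypes, and the same held for 12 members on the higher side, these 2 among them, and 6 on the lower. The share over all genes is not given here. Next by p was Rab31, an endosomal Rab, at 373 and 393 CPM in WT and 427 and 430 CPM in LysM-cKO (0.16, SE 0.08, p 0.0901). The 95% interval lay within 1 log2 unit of 0 in 40 of the 49 members, and the member median was −0.01. Beside these values and those at R0D3, all 8 proliferation markers were on the higher side in LysM-cKO (median log2 fold change 0.89 at R40D3 and 1.02 at R0D3). All 8 neutrophil markers were on the lower side (median −1.25 and −0.77), but 6 of the 8 overlapped between genotypes in each condition. At R40D3 they summed to 543 and 127 CPM in WT and 199 and 88.1 CPM in LysM-cKO. The R0D3 sums were 427 and 166 CPM in WT and 219 and 118 CPM in LysM-cKO. None of these 16 markers was called by edgeR or DESeq2. All 11 osteoclast markers were on the lower side in LysM-cKO at R40D3 (median −0.65), with 0 called by either method and 2 called lower with the replicate block. At R0D3, 7 of the 11 were on the lower side and 3 on the higher (median −0.06). The part of all these markers in the Rab values was not tested.

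Rab38 had a log2 fold change of −0.57 between the genotypes at R40D3 (SE 0.36, 95% CI −1.41 to 0.27, edgeR adjusted p 0.688). Its WT and LysM-cKO libraries overlapped, at 50.8 and 79.6 against 26.9 and 61.4 CPM. In each replicate number the LysM-cKO library was the lower of the pair, as was its osteoclast marker sum, 13272 against 26473 CPM in replicate 1 and 24987 against 38999 CPM in replicate 2. The part of the marker level in this value was not tested.

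At R0D3, the same comparison called 0 of 49 members against 0.0143% of all genes (edgeR). DESeq2 called 0 members (0.0283% of its genes), and 1 had an unadjusted edgeR p under 0.05, as did 4.42% of all genes. This was Rab6b, a Golgi Rab, at 15.3 and 11.8 CPM in WT and 9.31 and 10.7 CPM in LysM-cKO (log2 fold change −0.44, SE 0.18, edgeR p 0.0432, adjusted p 0.997). Rab3b, a synaptic-vesicle type Rab, followed at 1.40 and 0.933 CPM in WT and 0.690 and 0.243 CPM in LysM-cKO (−1.30, SE 0.64, p 0.0784), the lowest on 4 counts. Rab20 was at 22.9 and 21.6 CPM in WT and 20.4 and 19.0 CPM in LysM-cKO (−0.18, SE 0.10, p 0.129). In 40 of 49 members the 95% interval lay within 1 log2 unit of 0. These intervals were wide for rare members, reaching from −2.31 to 2.26 for Rab38 in these cultures.

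In the forelimb, Prx-cKO was compared with WT to ask whether Rab genes respond to Impdh2 loss in limb mesenchyme. None of the 59 members was called, and neither was any other gene (0% of those tested, edgeR). DESeq2 called 0 members and 0.937% of its 32230 genes, and 2 members had an unadjusted edgeR p under 0.05 against 10.5% of all genes. Rab6b was at 12.9 and 14.4 CPM in WT and 9.57 and 7.65 CPM in Prx-cKO (log2 fold change −0.68, SE 0.24, edgeR p 0.0343, adjusted p 0.466). Rab1b was at 196 and 198 CPM in WT and 240 and 269 CPM in Prx-cKO (0.37, SE 0.15, p 0.0483). Rab7b, next by p, was at 0.496 and 0.376 CPM in WT and 0.904 and 0.959 CPM in Prx-cKO (1.13, SE 0.47, p 0.06). None of the 3 overlapped between genotypes.

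The member median in the forelimb was −0.07 and that of all genes −0.03. Both Prx-cKO libraries lay below both WT libraries in 16 members and above in 4, against 21% and 22.2% of all genes. Beside these values, 8 chondrogenic markers summed to 893 and 1011 CPM in WT and 386 and 307 CPM in Prx-cKO, and 8 muscle markers to 331 and 323 CPM in WT and 939 and 445 CPM in Prx-cKO. The 8 limb mesenchyme markers summed to 1302 and 1526 CPM in WT and 996 and 1149 CPM in Prx-cKO. The 8 endothelial markers summed to 155 and 159 CPM in WT and 213 and 217 CPM in Prx-cKO, each without overlap. The 10 macrophage markers summed to 114 and 118 CPM in WT and 126 and 115 CPM in Prx-cKO, with overlap. Of 9 macrophage markers tested, 6 were on the higher side and 3 on the lower (median log2 fold change 0.70). DESeq2 called 8 chondrogenic, 2 muscle, 1 limb mesenchyme, 0 endothelial and 4 macrophage markers, and edgeR called 0. The part of these markers in the Rab values was not tested. The 95% interval lay within 1 log2 unit of 0 in 37 of 59 members.

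Forelimb replicates also differed within a group. Among the 44 members averaging 5 CPM or more in WT forelimbs, Rab2b, Rab33b, Rab43 and Rab4b differed by more than 2-fold between the replicates, by up to 3.23-fold. Rab4b, an early recycling Rab, was at 23.2 and 9.29 CPM in WT and 27.1 and 23.1 CPM in Prx-cKO. Without WT replicate 1 it became the only call (log2 fold change 1.40, SE 0.27, edgeR adjusted p 0.0236). Exons of Rab2b, Rab43 and Rab4b overlap those of other annotated genes over 59.3%, 75.4% and 65% of their length, so their counts are uncertain.

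**Figure D4:**
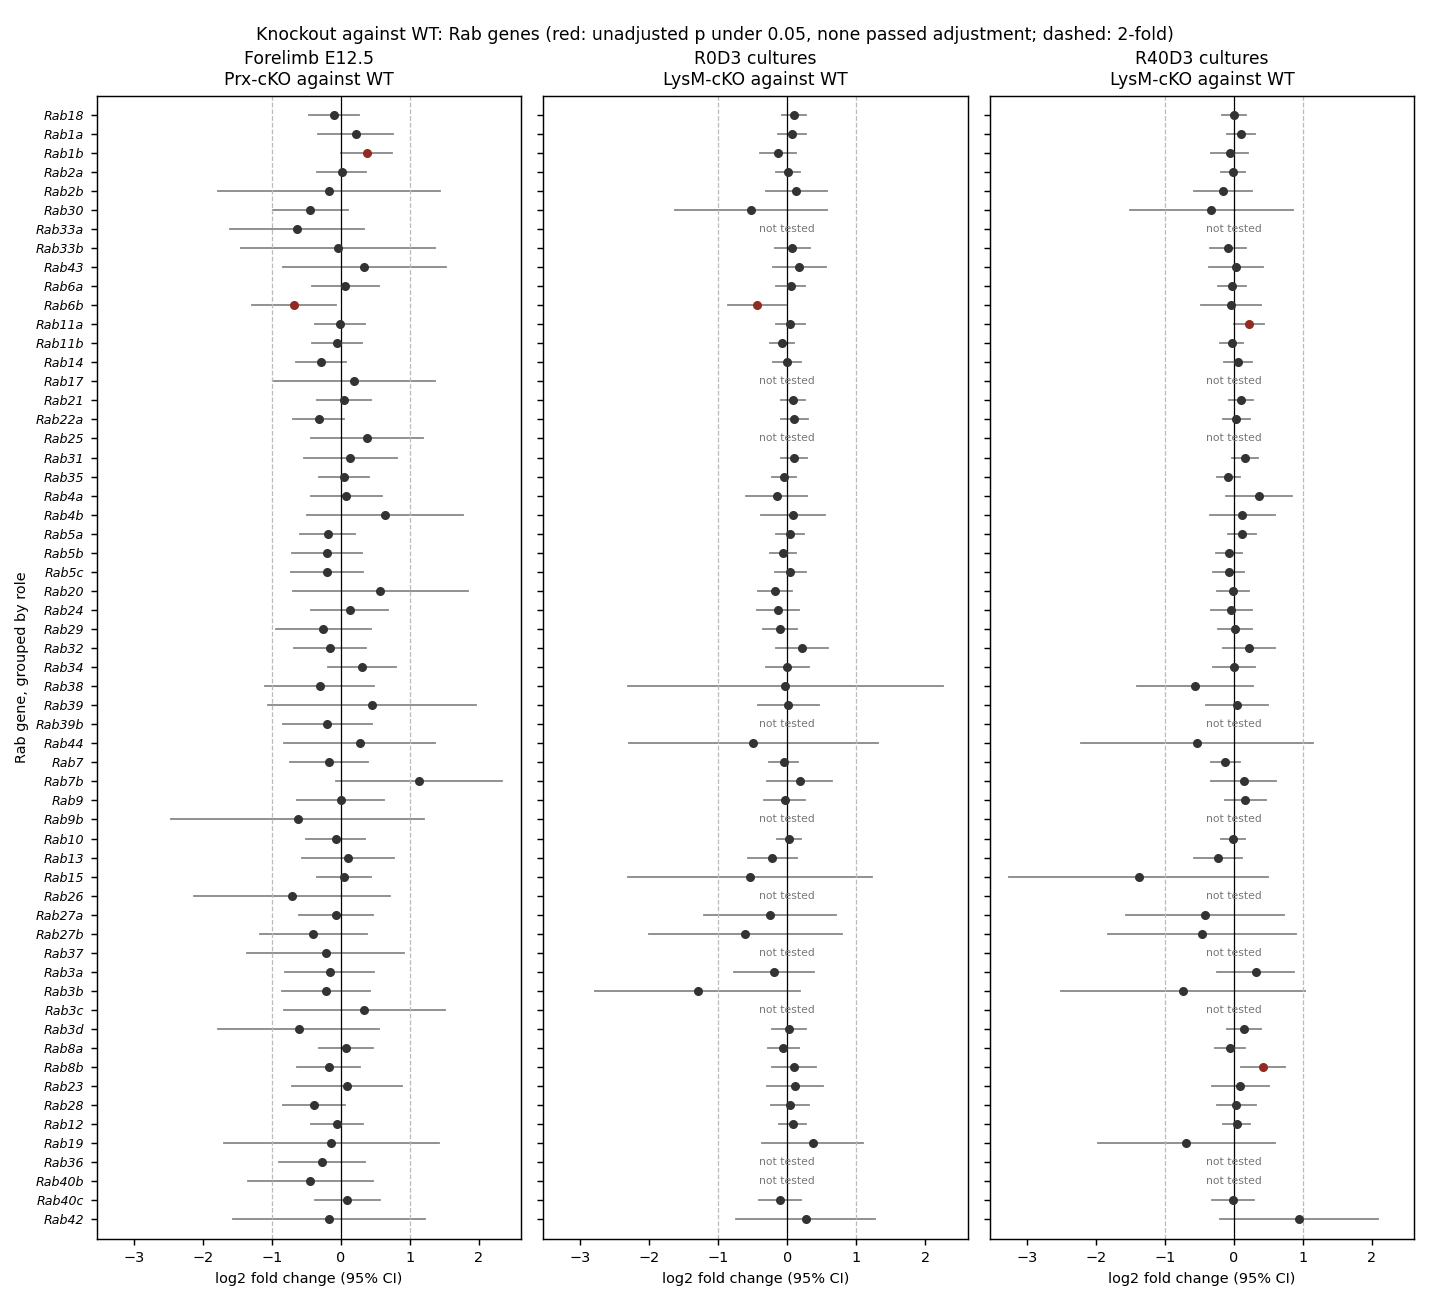
Log2 fold change of knockout against WT with its 95% CI for each Rab gene in forelimb, R0D3 and R40D3 cultures, with dashed lines at 2-fold. The 5 red points have an unadjusted p under 0.05 and none passed the adjusted threshold, while the widest culture intervals belong to rare genes, Rab38 at R0D3 and Rab15 at R40D3.

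Genes that operate the Rab cycle were examined in the same fits. Of 118 escort, exchange, GTPase-activating and effector genes tested, 25 rose and 7 fell in WT, 27.1% against 16.9% of all genes (edgeR), and 15 rose and 2 fell in LysM-cKO, 14.4% against 10.1%. With the replicate number as a block, 31 rose and 23 fell in WT and 25 rose and 11 fell in LysM-cKO, while 28.3% and 21.3% of all genes were called. No test was made of these shares. The median log2 fold change was 0.04 in both genotypes. None was called between genotypes in the cultures or the forelimb by edgeR. DESeq2 called 2 of 124 in the forelimb (0.937% of its genes) and 0 in the cultures. An unadjusted edgeR p under 0.05 was found for 7 in the forelimb, 12 at R40D3 and 7 at R0D3. The shares of all genes with such a p were 10.5%, 7.47% and 4.42%.

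Of 34 GEFs, 7 rose and 3 fell in WT, 29.4% against 16.9% of all genes. With the block 8 rose and 10 fell, where 28.3% of all genes were called. The widest rise was that of St5 (Dennd2b), from 5.01 and 5.10 to 39.0 and 53.9 CPM (3.20, SE 0.35, edgeR adjusted p 0.00161). The widest fall was that of Dennd4c, from 232 and 178 to 142 and 101 CPM (−0.75, SE 0.18, edgeR adjusted p 0.0298). Of 35 GAPs, 9 rose and 1 fell (28.6%), and with the block 11 rose and 4 fell. Sgsm1 had the widest rise, from 0.175 and 0.124 CPM, at most 3 counts a library, to 9.0 and 13.1 CPM. Tbc1d22a fell from 160 CPM in both R0D3 libraries to 128 and 115 CPM (−0.40, SE 0.08, edgeR adjusted p 0.0165).

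Of 42 effectors, 7 rose and 3 fell in WT, 23.8% against 16.9% of all genes. With the block 10 rose and 9 fell, where 28.3% of all genes were called. Rims2, a scaffold of exocytic sites that binds Rab3, rose from 0.524 and 0.124 to 2.09 and 3.05 CPM (2.92, SE 0.59, edgeR adjusted p 0.0149). Its R0D3 values lie near the floor. In LysM-cKO the largest log2 fold change of any effector was 1.80, and 0 effectors were called for the interaction. Mical1, a flavoenzyme that binds Rab8 family members, fell from 47.7 and 48.9 to 31.5 and 27.6 CPM (−0.71, SE 0.16, edgeR adjusted p 0.0208). The groups of St5, Rims2 and Mical1 did not overlap between R40D3 and R0D3.

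Promoter windows of the members, from 250 bases before to 50 after the RefSeq start (GRCm38.p6), were searched on both strands for TGANTCA, the site of AP-1 factors, and for CACGTG, the E-box bound by MITF and TFE3 among others. Both factor families are known in osteoclasts. Entries existed for 48 of the 59 members. TGANTCA was found in 3 of them, Rab15, Rab34 and Rab39b, and in 7.81% of all 32851 windows. CACGTG was found in 6, Rab20, Rab21, Rab23, Rab24, Rab27a and Rab5a, and in 7.15% of all windows. Rab20, which rose in both genotypes, was the only called member with either motif among those with an entry, and Rab38, Rab7b and Rab4a had none to search. The 250 bases before the start are shown for Rab20 (chr8:11478641-11478890, minus strand, the motif in capitals at bases 46 to 41 before the start) and for Rab8b (chr9:66919706-66919955, minus strand), the most abundant called member, in which neither motif was found.
Rab20: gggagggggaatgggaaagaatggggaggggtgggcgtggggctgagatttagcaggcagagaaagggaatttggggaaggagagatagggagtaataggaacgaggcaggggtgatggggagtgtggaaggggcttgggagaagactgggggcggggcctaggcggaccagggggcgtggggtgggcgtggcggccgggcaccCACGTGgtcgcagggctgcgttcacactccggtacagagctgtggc
Rab8b: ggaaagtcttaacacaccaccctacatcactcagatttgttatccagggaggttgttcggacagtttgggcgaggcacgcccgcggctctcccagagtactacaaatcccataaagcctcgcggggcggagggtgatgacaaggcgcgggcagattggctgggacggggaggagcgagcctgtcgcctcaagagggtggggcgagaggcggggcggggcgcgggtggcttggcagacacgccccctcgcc
The GENCODE gene of Rab20 reaches to base 11478710, inside this window, so the motif before the RefSeq start lies within that annotated gene. A match is a description of letters and not evidence of binding.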

How the data were processed

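The deposited values are read counts by Ensembl gene identifier, whole numbers with no scaling by the authors. The forelimb has 1 table, and the cultures 2, split by replicate number. RNA was taken up in TRIzol and sequenced from an mRNA library kit, per the labels' protocols. FastQC 0.11.2, Trimmomatic 0.36, HISAT2 2.1.0, DESeq2 1.12.4 and the build GRCm38 are named, without roles, per the submitters' processing notes. The counting tool, annotation and use of strand are not given in the sources used here. Reads of overlapping genes can therefore be misassigned.

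Counts were tested as deposited with edgeR 4.0.16 in R 4.3.3: filterByExpr, TMM scaling, quasi-likelihood test with legacy = FALSE, two-sided, Benjamini-Hochberg over all genes tested, called under an adjusted p of 0.05. Forelimb (4 libraries) and cultures (8 libraries) had a fit each. The standard error is derived from F as the size of the log2 fold change over its square root. CPM and CPM per kb of GENCODE M21 exon were computed from the deposited counts. Symbols were found for 99.6% of forelimb and 99.5% of culture identifiers. DESeq2 1.42.0 was an alternative, with other scalings, no filter, legacy = TRUE, a replicate block, only the libraries compared, and each library left out. The pipeline was tested on simulated data. Depth limits the rarest culture members (Rab3b had 3 to 24 counts a library).

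Same-numbered culture libraries deviated together from their group means (r 0.343 to 0.609 in 6 pairs of groups), and each number is a separate deposited table, so the numbers were taken to pair them. The main culture fit holds no term for this pairing, so its p-values, intervals and calls leave the pairing out. The replicate block adds the term. With the block, 0 members were called between genotypes or for the interaction in the cultures. In the forelimb the 1 pair had r 0.261 and shares only a number.

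Members named were called members (4 largest rises and 4 largest falls per R40D3 comparison with a mean of at least 5 CPM), the 3 smallest p where none was called, Impdh2, and the called regulator with the largest rise and fall per list, except in the escort list, whose result is not reported here. Rab3d, Rab11a and other members were added after their values were seen. The members, role groups, regulator lists and markers were chosen with earlier results of these data known. Of the listed symbols, Dennd2b (listed also as St5), Zfyve20 and Ighm were not matched. Coding sequences were aligned with Biopython 1.88.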

Additional observations from a re-analysis of the deposited data

How the results depend on the processing

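Each library was left out in turn, which leaves a group of 1 library assumed to vary like the others. The number of members called then ran from 1 to 4 between R40D3 and R0D3 in WT (8 with all libraries), from 2 to 4 in LysM-cKO (4 with all), and from 0 to 1 in the forelimb (0 with all). It stayed at 0 in the genotype comparisons and the interaction in the cultures. The replicate block raised the LysM-cKO count from 4 to 8 and changed no other call of a Rab gene, while it raised the count of regulators called from 32 to 54 in WT and from 17 to 36 in LysM-cKO. The cause was not tested. Counts under DESeq2, RLE scaling, library size alone, no filter, the legacy fit and the 4-library fits stayed within 1.5 times. Of the values for named members under alternatives, 239 kept their direction and side of the threshold, 30 kept the direction and missed it, and 0 reversed. The 239 include members named for a small p without a call, which count as kept when they stayed uncalled. The 30 are values of called members that lost their call. Calls gained by other members, such as Rab8b in LysM-cKO with the replicate block, are not counted. The 239 therefore do not measure how stable the calls were. Rab20 in WT missed the threshold under DESeq2 (0.38) and with no filter (0.35), and Rab4a under DESeq2 (−0.74) and library size alone (−0.71). With 2 libraries a group, members under about 1 CPM had 95% intervals several log2 units wide.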

Other observations

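The nearest named protein-coding gene on each side of the members called in WT was looked up after the results were seen. Next to Rab19, Slc37a3, a transporter of the lysosomal membrane, fell from 44.5 and 43.3 to 30.5 and 22.1 CPM in WT (log2 fold change −0.74, SE 0.16, edgeR adjusted p 0.0184). In LysM-cKO it fell from 47.5 and 42.4 to 27.9 and 24.6 CPM (−0.77, SE 0.16, edgeR adjusted p 0.0237). It ends 3500 bases before Rab19. Mkrn1, on the other side at 7424 bases, fell in WT from 143 and 136 to 103 and 99.3 CPM (−0.47, SE 0.08, edgeR adjusted p 0.00738). In LysM-cKO Mkrn1 had a log2 fold change of −0.16 that did not pass (edgeR adjusted p 0.279).

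Next to Rab8b, Aph1c, a gamma-secretase subunit, fell in WT from 136 and 120 to 81.6 and 63.3 CPM (−0.82, SE 0.15, edgeR adjusted p 0.0096), and Rps27l on the other side was not called (0.05, adjusted p 0.858). In LysM-cKO Aph1c had a log2 fold change of −0.43 that did not pass (edgeR adjusted p 0.121). The neighbours of Rab38 did not share its size of change. Ctsc, which encodes cathepsin C and lies 119385 bases away, was at 564 and 610 CPM in WT R0D3 and at 464 and 434 CPM in WT R40D3 (−0.39, SE 0.12, edgeR adjusted p 0.0756). Tmem135, at 648142 bases, rose in WT from 51.6 and 57.5 to 88.4 and 101 CPM (0.79, SE 0.19, edgeR adjusted p 0.0262), and in LysM-cKO its log2 fold change of 0.28 did not pass (edgeR adjusted p 0.42). Next to Rab4a, which fell in WT, Rhou, at 142101 bases, rose from 3.32 and 2.74 to 11.98 and 13.74 CPM in WT (2.08, SE 0.24, edgeR adjusted p 0.00196). In LysM-cKO Rhou rose from 3.62 and 2.97 to 6.08 and 8.75 CPM (1.16, SE 0.25, edgeR adjusted p 0.0289). Ccsap, on the other side of Rab4a, was not called in either genotype (−0.87 in WT, edgeR adjusted p 0.0657). Next to Rab7b, Ctse was not called in either genotype (−1.07 in WT, edgeR adjusted p 0.072) and Slc26a9 was too low to test. Neighbours of Rab20 (Col4a2 and Naxd), Rab3d (Dock6 and Tmem205) and Rab11a (Megf11 and Dennd4a) were not called in either genotype.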
